A study of Mus musculus with 2 samples.

Results

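Footprints of translating ribosomes were examined on 10 genes of the integrated stress response and of serine synthesis in the brains of newborn control mice. The genes were Atf4, Atf5, Ddit3, Trib3, Ppp1r15a, Asns, Slc3a2, Phgdh, Psat1 and Shmt2. They were taken by symbol from a table of 45578 genes, all 10 were found there, and each symbol belonged to a single gene identifier. Every gene had at least 1 footprint in both libraries, and footprint density ran from 163 ± 12.3 CPM per kilobase for Slc3a2 to 0.430 ± 0.103 for Trib3 (mean ± SD, n = 2). CPM is a gene's count scaled to a common library total, and density is CPM per kilobase of the coding length of the gene's leading coding transcript, the one with the highest mean count.

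The study held 1 group of 2 biological replicates, control brains at postnatal day 5 on the FVB background. Both carried the genotype Smn+/-; SMN2tg/0, meaning 1 disrupted copy of the mouse Smn gene together with a human SMN2 transgene. The controls were therefore not wild-type animals, and no other genotype was analysed here. Polysomes were separated on a sucrose gradient and digested with RNase I, and protected fragments of 25 to 35 nucleotides were sequenced. Replicate 1 held 1866831 footprints and replicate 2 held 5261878, which is 2.82 times as many, so that replicate 2 gave the narrower counting interval for each gene. RNA abundance was not analysed here, so a level is the ribosome load of all transcripts of a gene in the tissue. In whole brain, fewer cells of a type and fewer footprints per cell cannot be told apart.

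The integrated stress response is a shared pathway into which several stress-sensing kinases feed by phosphorylating the initiation factor eIF2, which lowers protein synthesis in general. The mRNA of the transcription factor ATF4 escapes this block, because short reading frames in its 5' leader hold ribosomes back from the main frame in unstressed cells and let them through when active eIF2 is scarce. ATF4 then raises genes for amino acid synthesis and uptake. Serine is made from a glycolytic intermediate by PHGDH, PSAT1 and PSPH in turn, and SHMT enzymes split it into glycine and a folate-bound carbon unit. In brain, astrocytes and their radial glial precursors are known as the main makers of serine, which neurons need for lipids and for the co-agonist D-serine.

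Promoter sequence is shown for the genes whose start regions held a motif of this pathway, since ATF4 acts by binding DNA. The windows run from 250 bases before to 50 bases after a gene's start in RefSeq's GRCm38.p6 assembly, and all 10 genes had at least 1, with 12 windows among them. The C/EBP-ATF response element, searched as TGATGNAA on both strands, is the sequence to which ATF4 binds with C/EBP partners. It was present in 3.97% of 32851 windows of all genes and in the windows of Asns and Trib3. The capitals mark the element, and both stretches are written 5' to 3' on the strand of the gene. The Asns stretch, chr6:7693210-7693269 on the minus strand, lies just before the gene. The Trib3 stretch, chr2:152344028-152344057 on the minus strand, lies just inside the transcribed part, with the element in the reverse orientation.
Asns, bases -60 to -1: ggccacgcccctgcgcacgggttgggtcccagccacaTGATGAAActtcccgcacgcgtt
Trib3, bases 4 to 33: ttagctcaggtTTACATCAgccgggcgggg

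These genes stood far apart in footprint density, at 105 ± 14.6 CPM per kilobase for Asns and 0.430 ± 0.103 for Trib3. The cyclic AMP response element TGACGTCA, a palindrome bound by the wider family of ATF and CREB factors, was in 1.79% of windows and in that of Ppp1r15a alone among the listed genes. Its stretch lies before the gene at chr7:45526269-45526328 on the minus strand.
Ppp1r15a, bases -60 to -1: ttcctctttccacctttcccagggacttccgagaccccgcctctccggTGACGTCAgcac

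The CCAAT box, a common promoter element searched as CCAAT on both strands, was in 37.4% of all windows and in those of 5 of the 10 genes, namely Atf4, Atf5, Ddit3, Phgdh and Psat1. The stretches of Atf4 and Phgdh, each with 2 copies before its start, are shown as examples of a regulator and an enzyme. They lie at chr15:80255059-80255183 on the plus strand and chr3:98339970-98340029 on the minus strand, and the Phgdh stretch holds only the copy nearer the start. A match is a description of letters, and the libraries carry no measure of promoter binding.
Atf4, bases -125 to -1: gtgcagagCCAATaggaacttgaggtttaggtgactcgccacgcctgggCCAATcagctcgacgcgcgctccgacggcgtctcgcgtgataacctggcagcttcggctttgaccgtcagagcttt
Phgdh, bases -60 to -1: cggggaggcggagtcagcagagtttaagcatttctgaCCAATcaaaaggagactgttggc

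The table also gives the annotated leader of each mRNA, and the values named first are those of the leading coding transcripts. The 5' untranslated region of Atf4 was 594 nucleotides long, which placed it above 93.8% of tested genes and made up 34.5% of the transcript. That of Atf5, a related transcription factor with a leader of the same regulatory kind, was 373 nucleotides, or 20.6% of its transcript. Ppp1r15a, whose product GADD34 brings protein phosphatase 1 to eIF2 and so ends the response, had 283 nucleotides on its leading transcript and 764 on another coding transcript. The leaders of Atf4, Atf5 and Ppp1r15a exceeded the median of 174 nucleotides over tested genes. The leading transcripts of the 5 amino acid genes had leaders under the median, at 150 nucleotides for Slc3a2, 136 for Psat1, 169 for Asns, 158 for Phgdh and 124 for Shmt2. Other coding transcripts of 3 of them had leaders above it. Slc3a2-202, with a leader of 274 nucleotides, held 47.6% and 49.6% of that gene's footprints in replicates 1 and 2. Psat1-002, with 268 nucleotides, held 26.7% and 26.9% of those of Psat1. For Asns, Asns-002 with 184 nucleotides held 31.3% and 32.5%, and Asns-003 with 237 held 10.4% and 9.61%. How fragments that match several transcripts were assigned is not given in the sources used here. These shares therefore do not show which transcript of a gene the ribosomes were on. Trib3 had 176 nucleotides, close to the median. The full-length coding transcript of Ddit3 had a leader of 186 nucleotides, while the coding transcript with more footprints was an incomplete model with a leader of 119 nucleotides and no 3' untranslated region. Over tested genes the leader took up a median of 5.94% of the transcript. The deposited counts belong to whole transcripts, so footprints on the upstream frames and on the main frame of Atf4, Atf5, Ddit3 and Ppp1r15a are added together in every level given here.

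**Figure D1:**
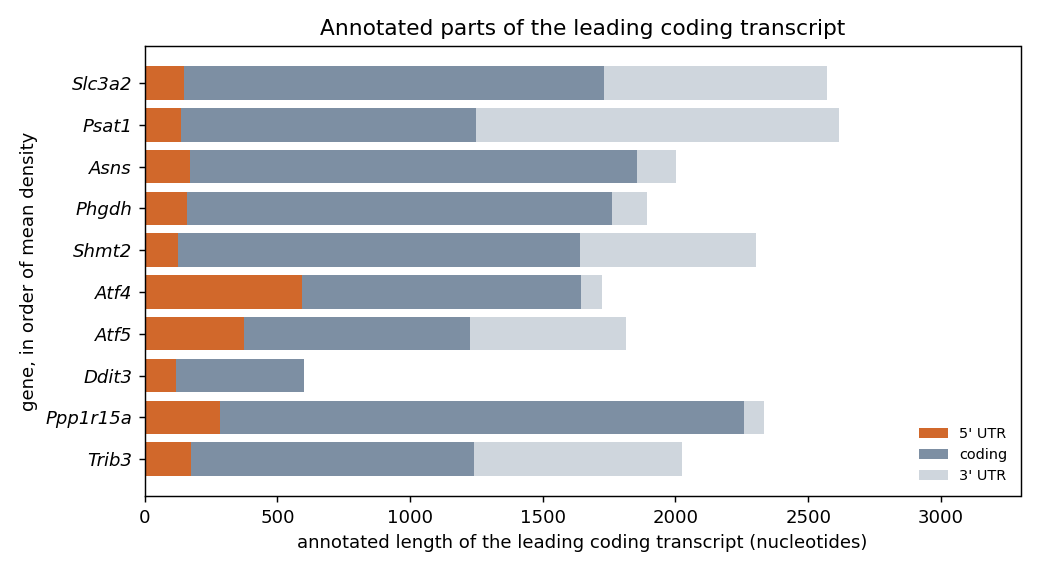
Annotated lengths in nucleotides of the 5' untranslated, coding and 3' untranslated parts of each gene's leading coding transcript, with genes in order of mean footprint density from the top. The 5' part is longest for Atf4 (594 nucleotides) and Atf5 (373 nucleotides), and the Ddit3 model is incomplete and lacks a 3' part.

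The 10 genes together took 1487 of the footprints of replicate 1 and 4388 of those of replicate 2. Their summed share was 0.0797% (95% Clopper-Pearson interval 0.0757 to 0.0838) in replicate 1 and 0.0834% (0.0809 to 0.0859) in replicate 2, so the intervals overlapped. The mean share was 0.0815% ± 0.00264 (SD, n = 2). Most of it lay on the 5 amino acid genes, which held 92.8% of the count in replicate 1 and 92.5% in replicate 2. The 5 regulators Atf4, Atf5, Ddit3, Trib3 and Ppp1r15a held 57.3 CPM in replicate 1 and 62.7 CPM in replicate 2, against 739 and 771 CPM for the amino acid genes, without correction for length. PCR copies are not independent molecules, so all intervals, floors and p-values given here cover counting error only. Where a gene has no count, 3 counts are taken as the most it could have hidden, which is 1.61 CPM in replicate 1 and 0.570 CPM in replicate 2.

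Atf4 (ENSMUSG00000042406, chr15:80255184-80257545 in RefSeq's GRCm38.p6), the transcription factor at the centre of the pathway, had 57 footprints in replicate 1 and 163 in replicate 2. These counts gave 30.5 CPM (interval 23.1 to 39.6) and 31.0 CPM (26.4 to 36.1). The libraries were nearly equal, with a mean of 30.8 ± 0.314 CPM, and in density the gene lay above 55.8% of tested genes. Atf4 was thus a gene of middling footprint density in the control brain, with any footprints on its upstream frames included.

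Atf5 (ENSMUSG00000038539, chr7:44812256-44816658), the related factor that is also known from neural progenitors, had 29 and 85 footprints, or 15.5 CPM (10.4 to 22.3) and 16.2 CPM (12.9 to 20.0) in replicates 1 and 2. Its libraries were also close, at a mean of 15.8 ± 0.438 CPM. The gene shares 571 bases with Nup62, which had 140 and 418 footprints, and 289 with Il4i1b, which had 8 and 19. The use of strand in counting is not given in the sources used here, so some footprints of Atf5 could belong to these neighbours.

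Ddit3 (ENSMUSG00000025408, chr10:127290793-127296291) encodes CHOP, a factor that carries prolonged stress towards cell death. It had 11 footprints in replicate 1 and 44 in replicate 2, or 5.89 CPM (2.94 to 10.5) and 8.36 CPM (6.08 to 11.2). In density the gene lay above 36.9% of tested genes. Mbd6, with 18 and 37 footprints, shares 77 bases with one end of it. Mars1, with 154 and 554 footprints, shares 71 with the other, so some footprints of Ddit3 could belong to these neighbours.

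Ppp1r15a (ENSMUSG00000040435, chr7:45522917-45526268) had 9 and 36 footprints, or 4.82 CPM (2.20 to 9.15) and 6.84 CPM (4.79 to 9.47). It was low in both libraries, and in density it lay above 6.71% of tested genes. Its stress-independent relative Ppp1r15b, which also directs the phosphatase to eIF2, had 60.0 and 56.4 CPM. Per kilobase of coding length, Ppp1r15b carried 11.73 times the density of Ppp1r15a in replicate 1 and 7.78 times in replicate 2, and per transcript length 5.19 and 3.44 times. The overlap of Ppp1r15a with Tulp2 is 730 bases, and Tulp2 itself had 0 and 5 footprints.

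Trib3 (ENSMUSG00000032715, chr2:152337425-152344060), a pseudokinase that damps ATF4 and is induced by it, had 1 footprint in replicate 1 and 2 in replicate 2. Its levels were 0.536 CPM (0.0136 to 2.98) and 0.380 CPM (0.0460 to 1.37), below the level that a count of 0 allows in each library. It was the one listed gene under the minimum mean count of 10 and was not tested. At this depth its presence in either library could hardly be told from none, and the replicates give no order.

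**Figure D2:**
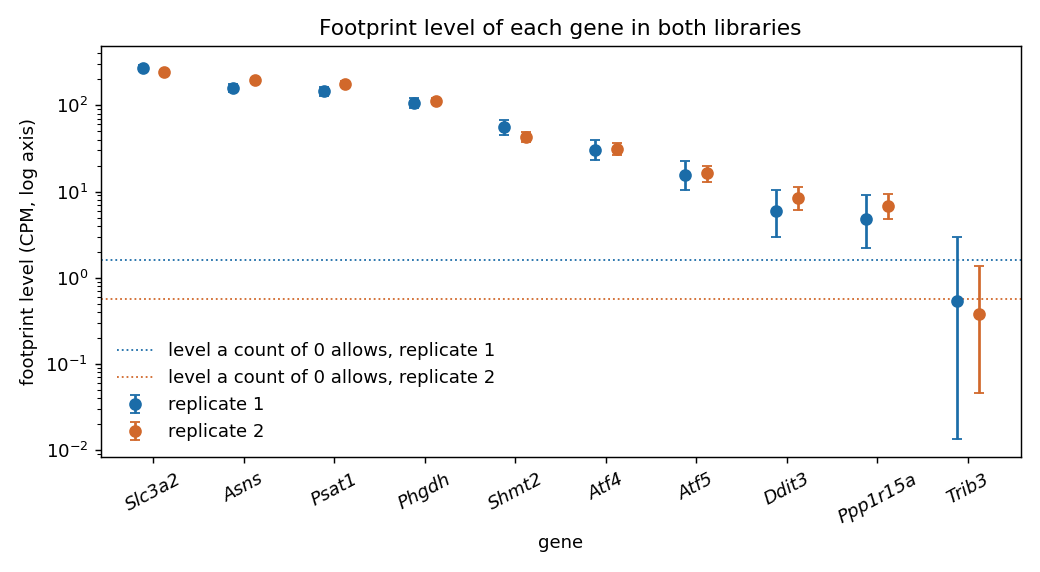
Footprint level in CPM on a log axis for the 10 genes in replicate 1 (blue) and replicate 2 (orange), with 95% Clopper-Pearson intervals as bars and dotted lines at the level a count of 0 allows. Slc3a2, Asns, Psat1 and Phgdh lie above 100 CPM in both libraries, and Trib3 lies under both dotted lines.

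Among the amino acid genes, Slc3a2 (ENSMUSG00000010095, chr19:8706882-8723369) had the highest mean density, though its values overlapped those of Psat1. It encodes the heavy chain 4F2hc, or CD98, which carries light chains of amino acid exchangers to the cell surface. It had 506 and 1282 footprints, or 271 CPM (248 to 296) and 244 CPM (230 to 257). The counting intervals of the libraries overlapped.

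Asns (ENSMUSG00000029752, chr6:7675165-7693209) makes asparagine from aspartate and glutamine. Its counts were 297 and 1020, or 159 CPM (142 to 178) and 194 CPM (182 to 206). On this scale replicate 2 was the higher library, with intervals that did not overlap.

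Phgdh (ENSMUSG00000053398, chr3:98313171-98339969), the first enzyme of serine synthesis, had 200 and 595 footprints, or 107 CPM (92.8 to 123) and 113 CPM (104 to 123). The libraries were close, at 110 ± 4.20 CPM. Psat1 (ENSMUSG00000024640, chr19:15905123-15925059), the transaminase of the next step, had 273 and 933 footprints, or 146 CPM (129 to 165) and 177 CPM (166 to 189). As for Asns, replicate 2 was higher and the intervals did not overlap.

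Shmt2 (ENSMUSG00000025403, chr10:127517123-127522444), the mitochondrial enzyme that turns serine into glycine, had 104 and 228 footprints, or 55.7 CPM (45.5 to 67.5) and 43.3 CPM (37.9 to 49.3). Here replicate 1 was the higher library and the intervals overlapped. The gene shares 32 bases with Ndufa4l2, which had 15 and 30 footprints.

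Levels of different genes were compared as density, in CPM per kilobase of coding length. The order by mean density was Slc3a2 at 163 ± 12.3, Psat1 at 145 ± 19.7, Asns at 105 ± 14.6, Phgdh at 68.7 ± 2.62, Shmt2 at 32.7 ± 5.78, Atf4 at 29.3 ± 0.299, Atf5 at 18.6 ± 0.514, Ddit3 at 14.8 ± 3.63, Ppp1r15a at 2.95 ± 0.724 and Trib3 at 0.430 ± 0.103 CPM per kilobase (SD, n = 2). All 5 amino acid genes thus stood above all 5 regulators in mean density. Neighbours in this order whose library values overlapped were Slc3a2 with Psat1 and Shmt2 with Atf4, and these cannot be ordered. Slc3a2 measured 171 and 154 against 131 and 159 for Psat1, and Shmt2 measured 36.8 and 28.6 against 29.1 and 29.5 for Atf4. Counting intervals also overlapped for Atf4 with Atf5 in replicate 1, for Atf5 with Ddit3 in both libraries and for Ppp1r15a with Trib3 in replicate 1. The widest step between tested neighbours was from Ddit3 to Ppp1r15a, at 5.02 times.

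The median density over 13317 tested genes with a coding transcript was 23.9 CPM per kilobase. The genes from Slc3a2 to Atf4 lay above it and those from Atf5 downwards lay below it. Slc3a2 stood above 90.5% of these genes, Psat1 above 89.3%, Asns above 84.9% and Phgdh above 77.4%. Ppp1r15a stood above 6.71%. When densities were taken per transcript length, which counts the long 3' part of Psat1, Asns came before Psat1 and Ddit3 before Atf5, and 6 of the 10 genes kept their place. In replicate 2 alone Psat1 came before Slc3a2 and Atf4 before Shmt2. The densities themselves depended on dividing the count of all transcripts by 1 coding length. With the footprints of the leading coding transcript alone, Slc3a2 had 83.7, Psat1 50.1, Phgdh 48.8, Asns 35.0, Atf5 11.5, Ddit3 5.39 and Ppp1r15a 1.35 CPM per kilobase, so that Phgdh came before Asns. With lengths weighted by the counts of a gene's transcripts, Asns at 116 came before Slc3a2 at 95.7. In mean density the 5 amino acid genes stayed above the 5 regulators under these 3 settings, with Shmt2 and Atf4 closest. These were at 32.7 and 29.3 with the leading coding transcript alone, and at 21.5 and 17.8 per transcript length.

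**Figure D3:**
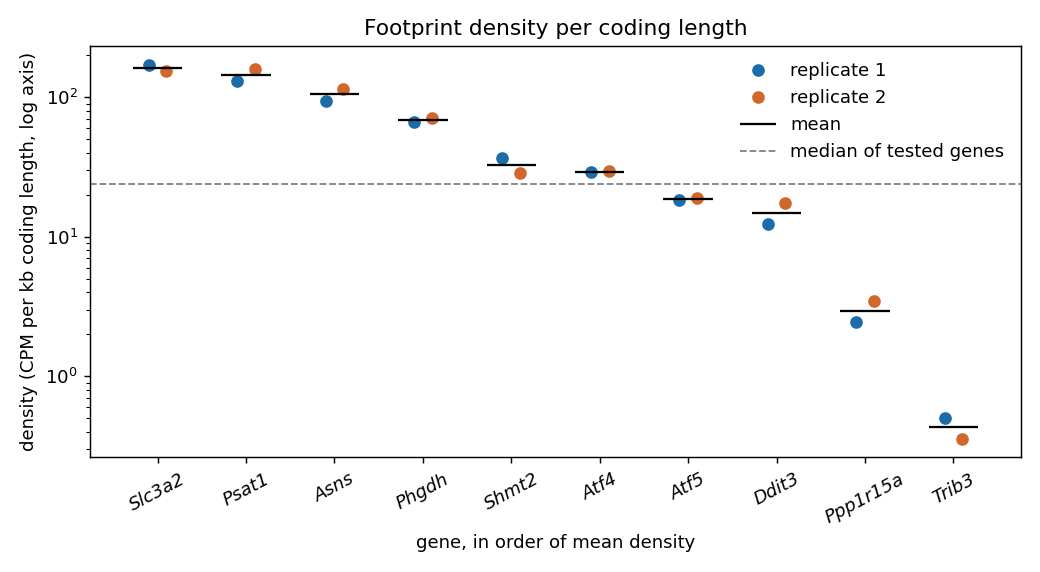
Footprint density in CPM per kilobase of coding length on a log axis, with a point per library, a black bar at the mean and a dashed line at the median of tested genes. Slc3a2, Psat1, Asns, Phgdh, Shmt2 and Atf4 lie above the line in both libraries, and the points of Slc3a2 and Psat1, and of Shmt2 and Atf4, overlap.

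Partners of these genes were picked by function, after the data had been seen, to place the enzymes within their reactions. Psph, the phosphatase that ends serine synthesis, had 40.2 and 41.0 CPM. Per coding length, Psat1 carried 1.96 and 2.26 times the density of Phgdh in replicates 1 and 2. This lead rested on the choice of length, as the ratios were 0.99 and 1.13 per transcript length and 0.89 and 1.17 with the leading coding transcripts alone. Psat1 exceeded Psph by 2.22 and 2.63 times per coding length and by at least 1.56 times under the other settings. Phgdh exceeded Psph by 1.13 and 1.17 times per coding length and by 2.44 and 2.52 times per transcript length. Both enzymes thus measured above Psph under each length tried, but per coding length the counting intervals of Phgdh and Psph overlapped in both libraries. The order of Phgdh and Psat1 was not settled. Mitochondrial Shmt2 exceeded its cytosolic relative Shmt1 by 4.54 and 3.56 times per coding length and by 2.99 and 2.34 times per transcript length. With the leading coding transcripts alone the ratios were 22.72 and 18.11. These are uncertain, since Shmt1 had 20 and 56 footprints over all its transcripts and fewer on the leading coding one. That transcript had no annotated 5' untranslated region and a coding length of 1324 nucleotides, which is not a whole number of codons. Slc3a2 had 1.04 and 1.23 times the density of Slc7a5, the light chain LAT1, per coding length, but 0.62 and 0.71 times with the leading coding transcripts alone. The 6 light chains that pair with Slc3a2, namely Slc7a5, Slc7a6, Slc7a7, Slc7a8, Slc7a10 and Slc7a11, summed to 261 and 239 CPM per kilobase of coding length, or 1.52 and 1.55 times Slc3a2.

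The counts of each gene in both replicates were set against each other by an exact binomial test, taken as two-sided. Library sizes were scaled by TMM (trimmed mean of M values). The Benjamini-Hochberg adjustment ran over the 16427 genes whose mean count reached 10, and those under an adjusted p of 0.05 were called. The design has no contrast between groups, so the test asks which genes differed between these 2 libraries beyond counting error, and it measures nothing about stress. Of the 10 genes, 9 were tested and 2 were called, Slc3a2 and Shmt2, both lower in replicate 2. Over all genes 17.4% were called, 11.5% lower and 5.95% higher in replicate 2, so the count of listed genes was near the background. Without adjustment 2 of the 9 had a p under 0.05, against 27.7% of all genes. The median log2 ratio of replicate 2 over replicate 1 was -0.05 for the 9 genes and 0.01 over all genes tested, and the median absolute log2 ratio was 0.16 against 0.29.

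Slc3a2 fell by 0.28 on the log2 scale from replicate 1 to replicate 2 (exact binomial test, adjusted p = 0.00310). Shmt2 had a log2 ratio of -0.48 (exact binomial test, adjusted p = 0.0321). Which genes were called turned on the scaling, since TMM shifts log2 ratios down by 0.13 relative to library totals, or slightly less for genes of low level. With library totals Slc3a2 had a log2 ratio of -0.15 (adjusted p = 0.153 by the exact binomial test) and Shmt2 -0.36 (adjusted p = 0.142), and neither was called. In their place Asns and Psat1 were called higher in replicate 2, each at a log2 ratio of 0.28, with adjusted p of 0.0187 and 0.0302 by the exact binomial test. Under TMM the ratios of Asns and Psat1 were 0.16 and 0.15, with adjusted p of 0.279 and 0.342 by the exact binomial test. Ratios between genes do not depend on the scaling: Slc3a2 had 1.70 times the footprints of Asns in replicate 1 and 1.26 times in replicate 2, Shmt2 had 0.38 and 0.24 times those of Psat1, and Asns kept 1.09 times those of Psat1 in both.

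The other 5 tested genes were not called under either scaling. Atf4, Atf5 and Phgdh had log2 ratios of -0.10, -0.07 and -0.05, and Ddit3 and Ppp1r15a both had 0.35, with adjusted p from 0.772 to 0.951 by the exact binomial test. At 11 and 44 footprints for Ddit3 and 9 and 36 for Ppp1r15a, a ratio of this size was not detectable at this depth.

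**Figure D4:**
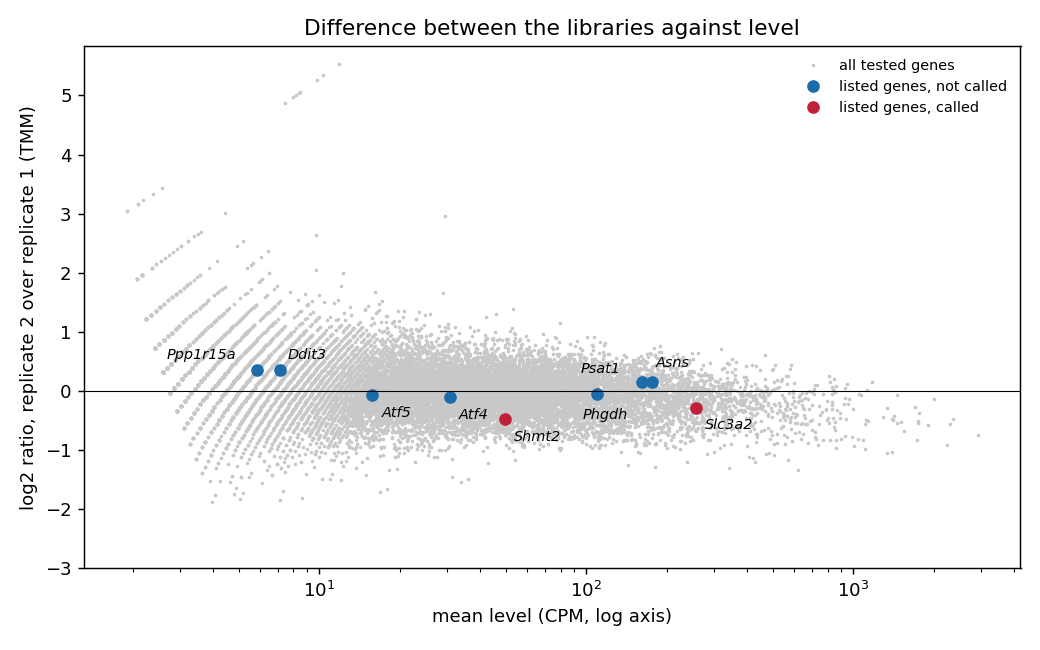
Log2 ratio of replicate 2 over replicate 1 with TMM scaling against mean level in CPM on a log axis, for all 16427 tested genes (grey) and the 9 listed genes tested (blue, or red where called). Slc3a2 at -0.28 and Shmt2 at -0.48 are called, and the other 7 lie between -0.10 and 0.35.

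The difference between the libraries followed density. Tested genes were divided into 10 bins of nearly equal size by density, and the median log2 ratio ran from 0.21 in the lowest bin, where 4.05% were called, to -0.26 in the highest, where 57.8% were called. Slc3a2, in the highest bin, had nearly the median ratio of that bin. Shmt2, at -0.48, lay below the median of 0.03 in its own bin, where 17.5% of genes were called. Asns and Psat1 lay above the median of -0.10 in theirs. Genes with more counts are called more easily by this test, so the share called does not compare the size of the difference between bins. The minimum of 10 was set on the mean raw count, to which the deeper replicate 2 adds more. Sparse genes therefore passed it more readily when higher in replicate 2. The parts of depth and of this minimum in these differences were not tested.

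The 10 genes had 34 annotated transcripts, of which 32 had a footprint and 21 were coding. Atf4 and Shmt2 had a single transcript each. The whole count of Slc3a2 and Atf5 lay on coding transcripts, 52.4% and 50.4% of it on Slc3a2-201, and 65.5% and 58.8% on Atf5-001. Asns was spread over 7 transcripts with 34.0% and 33.0% on Asns-001, and 88.9% ± 0.985 of its count lay on coding forms. Psat1 had 75.3% ± 1.79 and Phgdh 80.8% ± 1.06 on coding forms, below the median of 90.7% over genes. The remainder was assigned to retained-intron and processed forms, which share exons with the coding ones, so it does not show ribosomes on introns. Ddit3 was the least even, at 45.5% (interval 16.7 to 76.6) and 75.0% (59.7 to 86.8), with few counts. The share of the leading transcript was compared between libraries with Fisher's exact test in 7 of the genes, and 0 were called, with 0 at an unadjusted p under 0.05. Over 10129 genes 0.178% were called and 4.79% had an unadjusted p under 0.05. As the assignment of fragments that match several transcripts is not given, this test may not have been able to detect a difference in transcript use.

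The surrounding pathway was read from 6 lists, which held 80 different tested genes besides the 10. Of these, 18 were called between the libraries, 6 higher and 12 lower in replicate 2, against 17.4% of all genes. With library totals 18 were called as well, 11 of them higher and 7 lower, so the scaling set how the calls divided by direction. The genes named from each list are the 3 with the highest mean CPM, not corrected for length, and up to 3 called ones with the largest absolute log2 ratio.

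Of 18 tested genes for the eIF2 kinases, eIF2 itself, its exchange factor eIF2B and the phosphatase, 3 were called higher and 1 lower in replicate 2, with a median log2 ratio of 0.11. The phosphatase subunits Ppp1cb (312 and 327 CPM) and Ppp1cc (174 and 229 CPM) and the eIF2 subunit gene Eif2s3x (120 and 144 CPM) had the highest CPM. The kinases called were Eif2ak2, or PKR, a sensor of double-stranded RNA, with 10 and 74 footprints and a log2 ratio of 1.20 (exact binomial test, adjusted p = 0.0330), and Eif2ak4, or GCN2, a sensor of uncharged tRNA, with 25 and 148 footprints and 0.92 (adjusted p = 0.0118). Impact, an inhibitor of GCN2 known to be abundant in neurons, had 176 and 388 footprints and a log2 ratio of -0.48 (exact binomial test, adjusted p = 0.00364). All 3 calls, and that of Ppp1cc, were also made with library totals.

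Of 15 tested partners and effectors of ATF4, 0 were called higher and 2 lower, with a median of -0.05. With library totals 2 were called higher and 2 lower. Nfe2l1 (200 and 243 CPM), Vldlr (126 and 134 CPM) and Ddit4 (147 and 101 CPM) had the highest CPM. Ddit4, an inhibitor of the growth kinase mTORC1, had a log2 ratio of -0.66 (exact binomial test, adjusted p = 5.78e-08). Cebpb, a C/EBP factor that pairs with ATF4, had 31 and 40 footprints and -1.20 (exact binomial test, adjusted p = 0.00460). Both were called lower with library totals too. Atf3, a stress factor, had 2 and 8 footprints and was not tested.

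Of 16 tested enzymes of serine, glycine, folate and proline metabolism, 2 were called higher and 1 lower, with a median of -0.08. Aldh1l1, a folate enzyme and astrocyte marker, led at 165 and 177 CPM, ahead of Aldh18a1 of proline synthesis at 64.3 and 92.0 CPM. Srr, the racemase that makes D-serine, had 53.0 and 84.6 CPM and a log2 ratio of 0.54 (exact binomial test, adjusted p = 0.00479). Aldh18a1 had 0.39 (adjusted p = 0.0422, exact binomial test) and Gldc, which breaks down glycine, -0.61 (adjusted p = 0.0494, exact binomial test). With library totals the call of Gldc was lost and Tyms, which makes thymidylate, was called higher, at a log2 ratio of 0.90 (exact binomial test, adjusted p = 0.0157), which gave 3 called higher and 0 lower.

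Of 13 tested amino acid transporters, 1 was called higher and 4 lower, with a median of -0.07. With library totals 1 was called higher and 2 lower. Slc1a4 (261 and 213 CPM), which moves serine and alanine, Slc7a5 (253 and 193 CPM) and Slc38a1 (169 and 196 CPM), a glutamine carrier, had the highest CPM. The light chains of Slc3a2 did not move as one: Slc7a5 had a log2 ratio of -0.51 (adjusted p = 1.62e-08), Slc7a8 of -0.59 (adjusted p = 0.0118) and Slc7a11, the cystine exchanger and an ATF4 target, of 1.01 with 44 and 276 footprints (adjusted p = 5e-05), all by the exact binomial test. With library totals Slc7a5 and Slc7a11 were still called in the same directions and Slc7a8 was not.

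**Figure D5:**
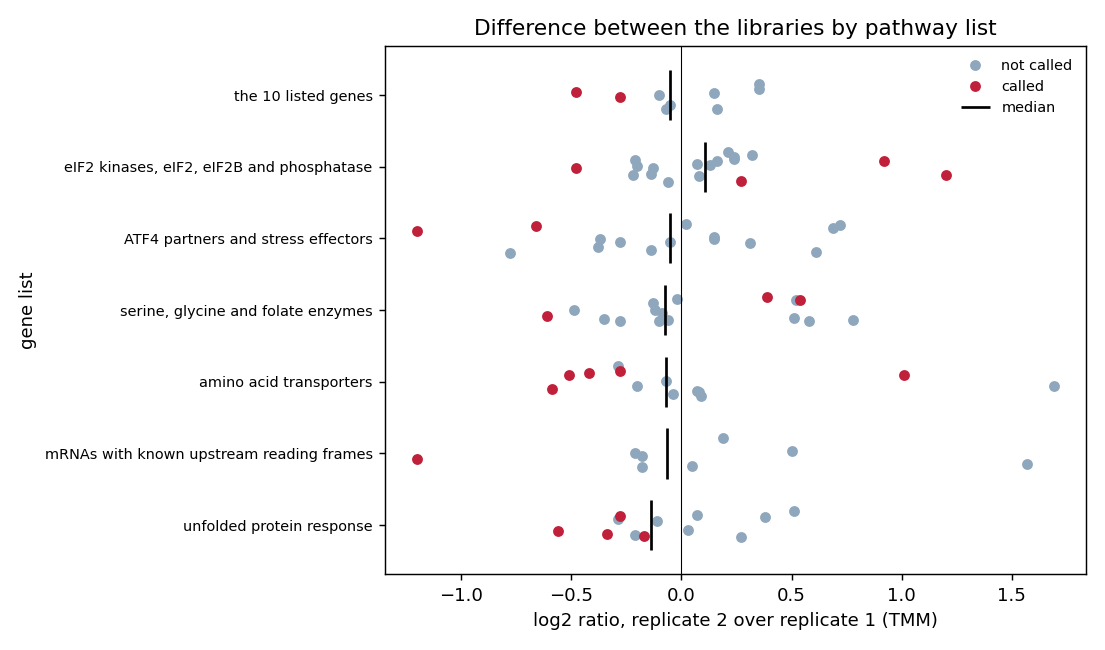
Log2 ratio of replicate 2 over replicate 1 with TMM scaling for the tested genes of each list, with red points for called genes and a black bar at the list's median. The median is -0.05 for the 9 listed genes tested and lies between -0.14 and 0.11 for the 6 pathway lists, and with library totals the ratios are higher by up to 0.13.

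Markers of the cell types in whole brain were read beside these genes, since footprints of enzymes such as Phgdh can come from several types. No marker gene was at 0 in both libraries. The calls below are to be read beside the 17.4% of all genes called, and the 57.8% in the bin of highest density. The summed level of 11 astrocyte and radial glia markers, led by Slc1a3, was 3082 CPM in replicate 1 and 2831 in replicate 2, with 4 called lower under TMM, and 3 lower and 1 higher with library totals. For 10 neuron markers, led by Map2, it was 6872 and 5383 CPM, with 7 called lower under TMM and 6 with library totals. For 9 markers of the oligodendrocyte lineage, led by Mbp, it was 1117 and 1342 CPM, with 3 called higher and 3 lower under TMM, and 3 and 2 with library totals. The 8 microglia markers, led by Csf1r, summed to 279 and 274 CPM. Under TMM P2ry12 was called higher and C1qa and C1qb lower, and with library totals 1 was called higher and 0 lower. The 8 endothelial markers summed to 332 and 307 CPM, and to 189 and 224 CPM without Cldn5, the highest of them. Only Cldn5 was called under TMM, as lower, and with library totals 2 were called higher and 1 lower. The 7 choroid plexus and ependyma markers summed to 674 and 380 CPM. Ttr alone accounted for that fall, at 582 and 277 CPM, while the other 6 summed to 92.1 and 103 CPM. Only Ttr was called in this list under TMM, as lower, and 1 gene was called lower with library totals. Red cell markers, led by Hbb-bs, summed to 2488 and 1706 CPM, with 4 of 6 tested called lower under TMM and 4 with library totals. Slc3a2 and Shmt2 were thus lower in replicate 2, where the summed CPM of astrocyte, neuron and red cell markers was lower too. Not all genes in these sums fell. The largest falls among astrocyte markers were those of Fabp7 (583 and 399 CPM) and Gja1 (265 and 201 CPM). Of the same markers, Slc1a3 was equal at 549 CPM in both libraries, and Slc1a2, Aldh1l1, Gfap and Gjb6 were higher in replicate 2. Map2, Rbfox3 and Dcx of the neuron markers, and Alas2 and Slc4a1 of the red cell markers, were higher in CPM in replicate 2. The sum for the oligodendrocyte lineage was higher there, although 3 of its genes were called lower under TMM. Microglia markers were nearly equal in sum, with calls in both directions under TMM. The lower endothelial and choroid plexus sums rested on Cldn5 and Ttr. The part of cell makeup in the ratios of Slc3a2 and Shmt2 was not tested.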

How the data were processed

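Ribosome-protected fragments from 2 control brains were analysed. The authors deposited whole-number counts per transcript, with no normalization, and annotated transcript, coding and untranslated lengths, per the file headers. Trimmomatic 0.36, Bowtie2 2.2.6, SAMtools and GRCm38.p4 are named in the submitters' processing notes. The treatment of fragments matching several transcripts, and the use of strand, are not given in the sources used here. Columns were matched to samples by replicate number.

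Transcript counts were summed per gene. Symbols, coordinates and promoter sequences came from RefSeq tables of GRCm38.p6, whose patch level differs from the submitters'. Scaling used TMM factors (edgeR 4.0.16, R 4.3.3) of 0.957 and 1.04. Tests were exact binomial and Fisher tests (scipy 1.17.1, Python 3.11.15) with Benjamini-Hochberg adjustment over all tested genes. Both were tested on simulated data with counting error alone. That simulation does not measure how often they err under the spread between these libraries. Log2 ratios used a prior of 0.5 CPM. A quasi-likelihood test needs a contrast, which 1 group lacks, so the tests compare libraries and not conditions. Intervals are 95% Clopper-Pearson.

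The 10 genes and all lists were chosen with earlier results of these data known. Named genes were all 10 listed genes, and of each pathway list the 3 highest by mean CPM and up to 3 called genes with the largest absolute log2 ratio. The other settings tried were library totals, DESeq2 1.42.0 size factors, no count minimum, the highest transcript per gene, coding transcripts alone, edgeR's exact test, other lengths for density and each replicate alone.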

Additional observations from a re-analysis of the deposited data

How the results depend on the processing

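The number of listed genes called between the libraries was 2 with TMM and 2, for different genes, with library totals. It was 1 with DESeq2 size factors and 1 with coding transcripts alone, Slc3a2 in both cases, as Shmt2 then had adjusted p of 0.0523 and 0.0502 by the exact binomial test. With the highest transcript per gene 0 of 8 were called by the exact binomial test, 2 at an unadjusted p under 0.05, where the share over all genes was 9.41%. With edgeR's exact test and the common dispersion, which takes the spread of the whole pair of libraries as error, 0 listed genes were called and 0 had an unadjusted p under 0.05. That test called 11 of 16427 genes. The 18 called pathway genes became 8 of 75 with the highest transcript, beside the same 9.41%, and 0 of 80 with edgeR's exact test, where 5 had an unadjusted p under 0.05. Under library totals the uncalled log2 ratios changed sign to 0.02 for Atf4, 0.05 for Atf5 and 0.08 for Phgdh. The summed share was 0.0968% when coding transcripts alone were counted, in the genes and in the total. The number of genes that kept their place by density was 6 of 10 per transcript length, 8 with the leading coding transcript alone, and between 6 and 10 with either replicate left out. With the longest annotated coding length, a setting added after seeing the data because the Ddit3 model is incomplete, all 10 kept it. No paired analysis was possible because the study has 1 group. Depth limits Ddit3, Ppp1r15a and Trib3, whose intervals are wide.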

Other observations

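The unfolded protein response of the endoplasmic reticulum shares the kinase PERK (Eif2ak3) with the ATF4 pathway and was read from a list of 12 genes. Its chaperones had the highest CPM of the list, with Calr at 761 and 561 CPM, Hspa5 (BiP) at 517 and 463 CPM and Hsp90b1 at 470 and 456 CPM in replicates 1 and 2. Of the 12 genes, 0 were called higher and 4 lower in replicate 2, with a median log2 ratio of -0.14, beside 11.5% of all genes called lower. Calr, Hspa5 and Hsp90b1, which were among the 4, lay in the bin of highest density. In that bin 57.8% of genes were called in either direction and the median log2 ratio was -0.26. Calr had -0.56 (exact binomial test, adjusted p = 5.42e-30), Atf6b -0.34 (adjusted p = 0.0133, exact binomial test) and Hspa5 -0.28 (adjusted p = 8.03e-06, exact binomial test). With library totals 2 were called, Calr and Hspa5, both lower. PERK itself had 56 and 157 footprints, or 30.0 and 29.8 CPM.

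Of 8 other mRNAs known for reading frames in the leader, 0 were called higher and 1, Cebpb, lower, with a median of -0.06. With library totals 2 were called higher and 1 lower. Eprs led at 112 and 139 CPM, ahead of Ppp1r15b at 60.0 and 56.4 CPM and Ifrd1 at 41.8 and 47.3 CPM. Amd1, with 4 and 42 footprints, had a log2 ratio of 1.57 (exact binomial test, adjusted p = 0.0539) under TMM and was called with library totals at 1.68 (exact binomial test, adjusted p = 0.0372). It is uncertain because a near-identical copy, Amd2, shares its sequence.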
